A study of Mus musculus with 6 samples.

Results

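The genes followed here in 6 mouse rhabdoid tumors encode the killing machinery of lymphocytes, namely *Gzma*, *Gzmb*, *Gzmk*, *Prf1*, *Nkg7*, *Ifng*, *Fasl*, *Ctsw*, *Klrk1* and *Klrd1*. They are a list given by name, not chosen by a test, and make up 10 of the 16557 genes that the 6 count tables hold between them. Each gene was counted in CD8 T cells, in the other T cells and in natural killer (NK) cells of every tumor, as transcripts tagged with a unique molecular identifier (UMI) and as cells with at least 1 UMI. All 10 genes are listed for 4 tumors. *Gzmk* and *Prf1* are missing from the table of MYC spinal Rosini1177 and *Prf1* from that of eRT Soxertini593, and both were counted there as 0.

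Cytotoxic lymphocytes kill by emptying granules onto a target cell. Perforin, the product of *Prf1*, opens the target membrane and lets granzymes, which are serine proteases, reach the cytosol and start cell death. The same lymphocytes also carry Fas ligand, which triggers a death receptor, and secrete interferon gamma, and NK cells decide between attack and tolerance by paired activating and inhibiting receptors such as NKG2D and CD94.

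The tumors were 3 MYC spinal rhabdoid tumors (mice Rosini1172, Rosini1177 and Rosini1232) and 3 extracranial rhabdoid tumors (eRT, mice Rosini1148, Soxertini568 and Soxertini593). In each, Cre recombinase activated by tamoxifen had removed floxed alleles of *Smarcb1*, which encodes a subunit of the SWI/SNF complex, a remodeler of chromatin (Smarcb1 fl/fl), after dams received 50 mg/kg on day 6.5 post-coitum. Mice Rosini1172, Rosini1177, Rosini1232 and Rosini1148 carried the Rosa26-cre model, whose promoter is ubiquitous, and were 19, 26, 17 and 17 weeks old by their labels, where the study's own list of mice gives a different age for Rosini1148. Mice Soxertini568 and Soxertini593 carried the Sox2-cre model, driven in *Sox2*-positive cells, and were 29 and 22 weeks old. The lymphocytes came from the same mice as the tumor cells, each tumor is 1 mouse, and no tumor-free control tissue was analysed here. Tumor type and mouse model are partly confounded, since Rosini1148 is the single eRT of the Rosa26-cre model. The plots name each mouse by its number alone.

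Dissociated viable cells were captured with the 10x Genomics 3′ v2 chemistry, and 22163 cells were kept, with 3841706 to 26184224 UMIs in a tumor. T and NK clusters held 2265 cells and made up 70.5%, 4.23% and 2.42% of the kept cells in MYC spinal Rosini1172, Rosini1177 and Rosini1232 and 4.29%, 27.1% and 4.45% in eRT Rosini1148, Soxertini568 and Soxertini593. Within them a cell with a UMI of *Cd3d*, *Cd3e* or *Cd3g* was taken as a T cell, and as a CD8 T cell when it also had a UMI of *Cd8a* or *Cd8b1*. A cell with no such CD3 UMI and at least 1 UMI of *Ncr1*, *Klrb1c*, *Klre1*, *Klra4*, *Klra7*, *Klra8* or *Klra9* was taken as an NK cell. This gave 478 CD8 T cells, 1271 other T cells and 333 NK cells, and 183 cells had neither kind of UMI. The gating genes are therefore not results, and the 10 genes were left out of both the gates and the genes used for clustering.

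Markers outside the gates were counted as well. Levels are given as CPM, the UMIs of a gene scaled to 1000000 UMIs of the class in a tumor. *Cd4* had a median of 59.8 CPM in other T cells, 4.55 CPM in CD8 T cells and 0 CPM in NK cells. In NK, CD8 T and other T cells the NK markers *Klri2* and *Eomes* had medians of 243, 0 and 23.2 CPM and 84.3, 22.7 and 10.5 CPM. Of T cell markers *Cd6* stood at 0, 125 and 91.0 CPM in that order. *Cd28* was less separated, at 117, 196 and 258 CPM, with UMIs in the NK cells of all 6 tumors. The marker list held no CD8 marker outside the gate. Other T cells can hold CD4, regulatory and gamma-delta T cells, and also CD8 T cells whose *Cd8a* and *Cd8b1* went undetected. T-like clusters of 199 cells in MYC spinal tumors and 270 in eRT had *Cd163l1*, *Blk* and *Il17a* among their leading genes. *Il17a* ranged from 0 to 2283 CPM in other T cells and from 0 to 282 CPM in CD8 T cells. The gamma-delta receptor genes sought were not listed for any tumor, so that identity could not be checked. In MYC spinal tumors the NK cells lay in a cluster with T cells, whereas an NK-like cluster of 157 cells separated in eRT. The numbers of CD8 T, other T and NK cells were 299, 594 and 131 in MYC spinal Rosini1172, 11, 95 and 27 in Rosini1177 and 55, 51 and 46 in Rosini1232. They were 15, 26 and 50 in eRT Rosini1148, 69, 376 and 64 in Soxertini568 and 29, 129 and 15 in Soxertini593. The share of each class among kept cells differed between tumor types by less than the spread among tumors (two-sided exact permutation test over 3 against 3 tumors, p = 0.8 for CD8 T, 0.9 for other T and 0.8 for NK cells, with 0.1 the smallest p this design allows).

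MYC spinal Rosini1177 stood apart in quality. Its 3 classes had a median of 512 to 617 UMIs per cell against 1134.5 to 3273.5 in the other tumors, and 110 of its 243 T and NK cluster cells (45.3%) entered no class. Its summed neutrophil markers (*S100a8*, *S100a9*, *Retnlg*, *Csf3r* and *Cxcr2*) stood at 4859 to 5387 CPM in the 3 classes against 0 to 2976 CPM in the same classes of the other 5 tumors. Each comparison was repeated without each tumor in turn. No cell profile was shared between tumors (0 identical profiles), and barcodes shared by libraries could not be counted because the cell names had been renumbered.

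The granzyme and perforin genes lie in separate places of the genome, apart from a pair. By GENCODE positions on GRCm38, *Gzma* (chr13:113093825-113100981, minus strand) and *Gzmk* (chr13:113171608-113225908, minus strand) are neighbors with 70626 bases between them. *Gzmb* lies at chr14:56258838-56262260 on the minus strand and *Prf1* at chr10:61297833-61304680 on the plus strand. *Klrd1* (chr6:129591782-129598775, plus strand) and *Klrk1* (chr6:129610323-129623864, minus strand) lie 11547 bases apart in the gene cluster of NK receptors. *Nkg7* (chr7:43437073-43438249, plus strand), *Ifng* (chr10:118441046-118445892, plus strand), *Fasl* (chr1:161780689-161788495, minus strand) and *Ctsw* (chr19:5465043-5468507, minus strand) stand alone among the 10 genes. RefSeq promoter sequences were found for 8 of the 10 genes, all but *Ctsw* and *Klrd1*.

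The 250 bases before the RefSeq start of the 3 granzyme genes and of *Prf1* are shown because these genes of 1 granule reached their highest level in different classes, *Gzmk* in CD8 T cells and *Gzma*, *Gzmb* and *Prf1* in NK cells. They are from RefSeq on GRCm38.p6, read 5′ to 3′ on the strand of the gene, at chr13:113100982-113101231 for *Gzma*, chr13:113180966-113181215 for *Gzmk*, chr14:56262335-56262584 for *Gzmb* and chr10:61297586-61297835 for *Prf1*. Capitals mark the letters AGGTGT (a T-box core), TGTGGT (a RUNX core) or TGANTCA (an AP-1 core) on either strand.
Gzma: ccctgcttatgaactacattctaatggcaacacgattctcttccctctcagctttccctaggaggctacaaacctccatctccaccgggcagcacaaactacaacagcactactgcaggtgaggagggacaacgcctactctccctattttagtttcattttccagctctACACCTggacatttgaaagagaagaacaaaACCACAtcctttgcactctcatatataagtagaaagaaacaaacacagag
Gzmk: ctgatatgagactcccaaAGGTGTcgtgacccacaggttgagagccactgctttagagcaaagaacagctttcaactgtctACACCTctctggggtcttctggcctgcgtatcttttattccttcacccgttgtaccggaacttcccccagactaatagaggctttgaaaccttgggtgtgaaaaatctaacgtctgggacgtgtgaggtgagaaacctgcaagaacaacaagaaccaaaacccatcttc
Gzmb: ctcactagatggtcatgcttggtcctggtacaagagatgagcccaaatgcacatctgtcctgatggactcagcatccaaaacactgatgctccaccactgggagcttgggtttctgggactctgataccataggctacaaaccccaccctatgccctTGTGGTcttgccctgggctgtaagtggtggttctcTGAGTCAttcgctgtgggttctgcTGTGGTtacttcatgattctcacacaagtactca
Prf1: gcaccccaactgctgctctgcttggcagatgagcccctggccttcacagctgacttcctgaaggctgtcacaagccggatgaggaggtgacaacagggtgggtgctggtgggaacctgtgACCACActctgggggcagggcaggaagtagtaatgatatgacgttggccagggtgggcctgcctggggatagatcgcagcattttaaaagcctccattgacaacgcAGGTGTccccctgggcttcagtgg
The T-box letters occurred in 4 of the 8 windows, those of *Nkg7*, *Prf1*, *Gzma* and *Gzmk*, against 11.8% of 32851 RefSeq windows of the same length. The RUNX letters occurred in 5 of 8 windows, those of *Klrk1*, *Nkg7*, *Prf1*, *Gzma* and *Gzmb*, against 14% of all windows. The AP-1 letters occurred in the *Gzmb* window alone, against 6.75% of all windows, and the letters ACCGGAAG of an ETS site in 0 of 8 against 1.72%. These motifs do not overlap each other in letters, and a match is a description of the sequence and not a binding site. *Gzma* and *Gzmk*, whose levels went to different classes, both hold the T-box letters, at 80 bases before the start in *Gzma* and at 232 and 169 bases before it in *Gzmk*.

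Granzyme A, a tryptase, had the widest gap between NK cells and both T cell classes among the 6 genes that could be tested. Its level in NK cells was 6017, 2549.8 and 3839 CPM in MYC spinal Rosini1172, Rosini1177 and Rosini1232 and 3554.5, 2728.5 and 1565 CPM in eRT Rosini1148, Soxertini568 and Soxertini593. In CD8 T cells *Gzma* stood at 63.7, 0 and 75.3 CPM and at 55.6, 10.2 and 0 CPM in the same order. In other T cells it stood at 87.4, 15.8 and 827 CPM and at 144, 135 and 16.4 CPM. The lowest NK value, in Soxertini593, was above the highest value of either T cell class in any tumor. NK cells averaged 3376 ± 1523 CPM (SD, n = 6 tumors), CD8 T cells 34.1 ± 34.4 CPM and other T cells 204 ± 310.2 CPM. A *Gzma* UMI was found in 80.9%, 55.6% and 71.7% of NK cells of the MYC spinal tumors and in 46%, 57.8% and 13.3% of those of the eRT. In CD8 T cells the highest share was 7.27% and in macrophage-like cells, which should lack the gene, it was 0.04% to 1.67%.

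Single cells carried much of the *Gzma* signal in places. In the NK cells of eRT Rosini1148 a single cell held 319 of 687 UMIs, and in those of Soxertini593 a single cell held 21 of 29. The high value of other T cells in MYC spinal Rosini1232 came from 94 UMIs in 4 cells, 77 of them in 1 cell. In the NK cells of Rosini1172, Rosini1177, Rosini1232 and Soxertini568 the signal was spread more widely, and the highest cell held 86 of 1206, 8 of 53, 73 of 412 and 50 of 424 UMIs.

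Granzyme B cleaves after aspartate and activates caspases. In NK cells *Gzmb* stood at 1377, 48.1 and 988 CPM in MYC spinal Rosini1172, Rosini1177 and Rosini1232 and at 4470.3, 1396 and 1025 CPM in eRT Rosini1148, Soxertini568 and Soxertini593. CD8 T cells held 400.2, 0 and 301.1 CPM and then 2085, 275 and 0 CPM. Other T cells held 457, 0 and 378 CPM and then 2448, 261 and 87.6 CPM. NK cells were highest in 6 of 6 tumors, and the tumors themselves differed, with all 3 classes of Rosini1148 above the same class of every other tumor. Of its NK cells 96% had a *Gzmb* UMI, against 3.7% to 60.9% in the other tumors, and 73.3% of its CD8 T cells, against 0% to 29.1%, while macrophage-like cells reached 2.78%. Its NK cells were also the deepest, at a median of 3273.5 UMIs per cell, and its CD8 T and other T cells numbered 15 and 26. The NK value of Rosini1177 rests on 1 UMI in 27 cells, with an exact 95% Poisson interval of 1.22 to 268 CPM that, like all intervals and limits given here, covers counting error only.

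CD8 T cells and other T cells did not keep a fixed order for *Gzmb*. CD8 T cells were above other T cells in 1 tumor (Soxertini568) and below them in 4, and in Rosini1177 both classes had 0 UMIs, where 3 UMIs would have made 323 CPM in CD8 T cells and 47.4 CPM in other T cells. The CD8 T cells of Soxertini593 also had 0 UMIs, with 3 UMIs worth 65.2 CPM.

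Granzyme K, the tryptase encoded next to *Gzma*, showed the opposite distribution. The CD8 T cell values were 274.4, 0 and 41.8 CPM of *Gzmk* in MYC spinal Rosini1172, Rosini1177 and Rosini1232 and 167, 30.6 and 65.2 CPM in eRT Rosini1148, Soxertini568 and Soxertini593. The other T cell values were 82.1 CPM in Rosini1172, 24.0 CPM in Rosini1148 and 10.2 CPM in Soxertini568, and 0 UMIs in the other 3 tumors. NK cells held 44.9 CPM in Rosini1172 and 5.17 CPM in Rosini1148, and 0 UMIs in the other 4 tumors. CD8 T cells were thus highest in 5 of the 5 tumors with a UMI in the classes. The counts are small outside Rosini1172, which gave 181 of the 198 CD8 T cell UMIs, in 100 of its 299 CD8 T cells (33.4%). In its NK cells 6.87% had a *Gzmk* UMI and in its macrophage-like cells 1.11%.

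Co-detection was counted for pairs of granzymes. Of the 299 CD8 T cells of Rosini1172, 32 had UMIs of both, 49 of *Gzmb* alone, 68 of *Gzmk* alone and 150 of neither. Of its 131 NK cells 54 had UMIs of both *Gzma* and *Gzmb*, 52 of *Gzma* alone, 7 of *Gzmb* alone and 18 of neither. In the 50 NK cells of Rosini1148, 23 had both, 0 had *Gzma* alone, 25 had *Gzmb* alone and 2 had neither. Granzyme-positive NK cells therefore carried mainly *Gzma* or both in Rosini1172 and *Gzmb* or both in Rosini1148.

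**Figure D1:**
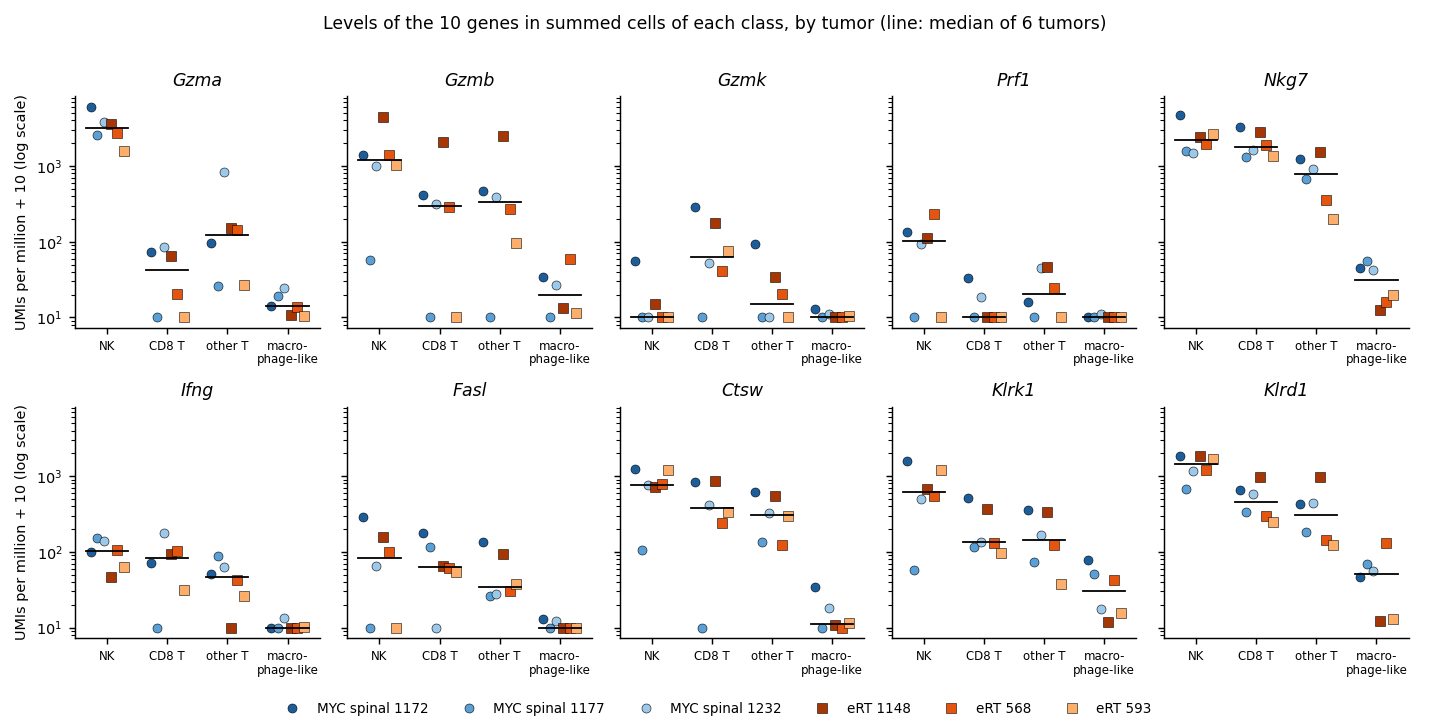
Level of each of the 10 genes in summed cells of each class, as CPM plus 10 on a log axis, with a point for each tumor (circles for MYC spinal, squares for eRT) and a line at the median of 6 tumors. *Gzma* is separated between NK cells (1565 to 6017 CPM) and CD8 T cells (0 to 75.3 CPM), and *Gzmk* is highest in CD8 T cells. Macrophage-like cells, some of which held a gating UMI, are shown for reference.

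Perforin, without which granzymes do not enter the target, gave few UMIs. NK cells held 125, 0 and 83.9 CPM of *Prf1* in MYC spinal Rosini1172, Rosini1177 and Rosini1232 and 103, 219 and 0 CPM in eRT Rosini1148, Soxertini568 and Soxertini593. In CD8 T cells there were 22.7 CPM in Rosini1172, from 15 UMIs, and 8.36 CPM in Rosini1232, from 1 UMI, and 0 in the other tumors. In other T cells there were 6.18, 35.2, 36.0 and 14.3 CPM in Rosini1172, Rosini1232, Rosini1148 and Soxertini568 and 0 UMIs in Rosini1177 and Soxertini593. NK cells were highest in the 4 of 4 tumors that had a UMI. Both tumors without a UMI are those whose tables do not list the gene, and in their NK cells 3 UMIs would have made 144 CPM in Rosini1177 and 162 CPM in Soxertini593, so that a level like that of Rosini1172 was not detectable there. A UMI was found in 14.5% and 15.2% of NK cells of Rosini1172 and Rosini1232 and in 26% and 31.2% of those of Rosini1148 and Soxertini568, against 0.149% or less in macrophage-like cells.

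Of the NK cells of Rosini1148 with a *Prf1* UMI, 13 of 13 also had a *Gzmb* UMI, and 35 cells had *Gzmb* alone. In Rosini1172, 13 of 19 *Prf1*-positive NK cells had a *Gzmb* UMI, and in Soxertini568 14 of 20. Since a *Prf1* level near 100 CPM is caught in few cells at 1299 to 3273.5 UMIs per cell, a cell without a UMI is not shown to lack the transcript.

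*Nkg7* encodes a membrane protein of cytotoxic granules that is needed for their release. In NK cells it stood at 4745, 1588 and 1472 CPM in MYC spinal Rosini1172, Rosini1177 and Rosini1232 and at 2437, 1918 and 2644.5 CPM in eRT Rosini1148, Soxertini568 and Soxertini593. In CD8 T cells it stood at 3271.5, 1293 and 1623 CPM and at 2836, 1894 and 1325 CPM. In other T cells it stood at 1231, 664 and 906 CPM and at 1536, 343 and 192 CPM. CD8 T cells were above other T cells in 6 of 6 tumors, whereas NK cells were above CD8 T cells in 4 and below them in Rosini1232 and Rosini1148. A UMI was found in 74.1% to 97.7% of NK cells, 41.4% to 93.3% of CD8 T cells and 10.1% to 73.1% of other T cells, against 0.64% to 3.87% of macrophage-like cells. Among the 6 testable genes, *Nkg7* alone was called between CD8 T cells and other T cells.

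Cathepsin W, a cysteine protease of NK and cytotoxic T cells, varied less between classes. NK cells held 1222, 96.2 and 745 CPM of *Ctsw* in MYC spinal Rosini1172, Rosini1177 and Rosini1232 and 719, 772 and 1187 CPM in eRT Rosini1148, Soxertini568 and Soxertini593. CD8 T cells held 816, 0 and 409.9 CPM and then 862, 234 and 326 CPM. Other T cells held 610.0, 126 and 317 CPM and then 540.1, 112 and 285 CPM. NK cells were highest in 4 of 6 tumors, CD8 T cells in Rosini1148 and other T cells in Rosini1177. The ranges of NK cells and CD8 T cells overlapped over most of their width. A *Ctsw* UMI was found in 7.41% to 82% of NK cells and 0% to 93.3% of CD8 T cells, against 0% to 7.22% of macrophage-like cells.

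Interferon gamma activates macrophages and antigen presentation, and *Ifng* gave 74 UMIs in CD8 T cells, 76 in other T cells and 58 in NK cells of all tumors. NK cells held 89.8, 144 and 130.4 CPM of *Ifng* in MYC spinal Rosini1172, Rosini1177 and Rosini1232 and 36.2, 96.5 and 54.0 CPM in eRT Rosini1148, Soxertini568 and Soxertini593. The CD8 T cell values were 62.2, 0 and 167 CPM and then 83.4, 91.7 and 21.7 CPM. The other T cell values were 40.6, 79.0 and 52.8 CPM and then 0, 32.6 and 16.4 CPM. The 3 classes overlapped, and NK cells were above other T cells in 6 of 6 tumors. A UMI was found in 6.67% to 13% of NK cells and 0% to 13.3% of CD8 T cells, against 0% to 0.595% of macrophage-like cells.

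Fas ligand kills through the receptor Fas without granules. NK cells held 279 CPM of *Fasl* in Rosini1172, 55.9 CPM in Rosini1232, 145 CPM in Rosini1148 and 90.1 CPM in Soxertini568, and 0 UMIs in Rosini1177 and Soxertini593, where 3 UMIs would have made 144 and 162 CPM. CD8 T cells held 167, 108 and 0 CPM in the MYC spinal tumors and 55.6, 50.9 and 43.5 CPM in the eRT. Other T cells held 124, 15.8 and 17.6 CPM and then 84.0, 20.4 and 27.4 CPM. The value of 108 CPM in CD8 T cells of Rosini1177 is 1 UMI. In Rosini1172, the tumor with the most T cells, a *Fasl* UMI was found in 34.4% of NK cells, 29.8% of CD8 T cells and 19.5% of other T cells, against 0.556% of macrophage-like cells.

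*Klrk1* encodes NKG2D, an activating receptor for stress-induced ligands on target cells. NK cells held 1596.5, 48.1 and 484.5 CPM in MYC spinal Rosini1172, Rosini1177 and Rosini1232 and 657, 541 and 1187 CPM in eRT Rosini1148, Soxertini568 and Soxertini593. The CD8 T cell values were 505, 108 and 125 CPM and then 361, 122 and 86.9 CPM. The other T cell values were 347, 63.2 and 158 CPM and then 324, 112 and 27.4 CPM. NK cells were highest in 5 tumors, and in the sixth, Rosini1177, the NK and CD8 T values are 1 UMI each. A *Klrk1* UMI was found in 3.7% to 88.5% of NK cells, against 0.808% to 14.4% of macrophage-like cells.

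*Klrd1* encodes CD94, which pairs with NKG2A or NKG2C to read the MHC class Ib molecule Qa-1. NK cells held 1861, 674 and 1146 CPM in the MYC spinal tumors and 1826, 1209.8 and 1673 CPM in the eRT. CD8 T cells held 652, 323 and 569 CPM and then 973, 285 and 239 CPM. Other T cells held 415, 174 and 431 CPM and then 960.1, 133 and 115 CPM. The order NK, CD8 T, other T was kept in 6 of 6 tumors, although the CD8 T and other T values of Rosini1148 are close. A *Klrd1* UMI was found in 33.3% to 98% of NK cells, against 0.48% to 8.16% of macrophage-like cells. In 5 tumors both receptors were met in the same NK cells, with UMIs of both in 97 of 131 cells of Rosini1172, 27 of 46 of Rosini1232, 43 of 50 of Rosini1148, 35 of 64 of Soxertini568 and 9 of 15 of Soxertini593. In Rosini1177 0 of 27 NK cells had both, 1 had *Klrk1* alone and 9 had *Klrd1* alone.

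The shares were taken again with every cell thinned to 1000 UMIs and shallower cells left out, which kept 5 tumors in each lymphocyte class, without Rosini1177, and 6 for macrophage-like cells. The class with the highest mean share stayed the same for 9 of the 10 genes, the exception being *Ifng*, at 7.56% of NK cells and 7.96% of CD8 T cells after thinning against 10.6% and 7.90% before. The mean share of NK cells with a *Gzma* UMI was then 47.2% (54.2% unthinned over 6 tumors), against 3.32% (3.18%) of CD8 T cells, 3.47% (5.39%) of other T cells and 0.327% (0.714%) of macrophage-like cells. For *Gzmb* the thinned shares were 48.0% of NK cells, 20.1% of CD8 T cells and 20.6% of other T cells (47.6%, 24.7% and 22.4% unthinned), so that the order of the T cell classes turned. For *Nkg7* they were 85.3%, 69.4% and 37.0% (89.3%, 76.0% and 40.2%), for *Klrd1* 71.3%, 31.5% and 21.4% (76.8%, 39.7% and 24.0%), and for *Gzmk* 0.702%, 11.7% and 1.48% (1.48%, 12.5% and 2.41%). Macrophage-like cells reached 2.21% for *Klrd1*, 1.48% for *Klrk1* and 0.901% or less for the other 8 genes. The macrophage-like clusters had a median of 1767 to 3669 UMIs per cell, as deep as or deeper than most of the lymphocyte classes. In Rosini1177 they are a poor reference, since their summed macrophage markers stood at 617 CPM, against 7288 to 20209.7 CPM in the other tumors, and their neutrophil markers at 15619.7 CPM. Macrophage-like cells also included some with a gating UMI, so they are not a clean background. In Rosini1232, 57 of them gated as other T held 105 and 15 gated as NK held 86 of their 397 UMIs of the 10 genes. In Rosini1172, 23 gated as other T held 58 and 4 gated as CD8 T held 40 of 139. In Rosini1148, those gated as other T and as NK held 1 UMI each of 31.

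**Figure D2:**
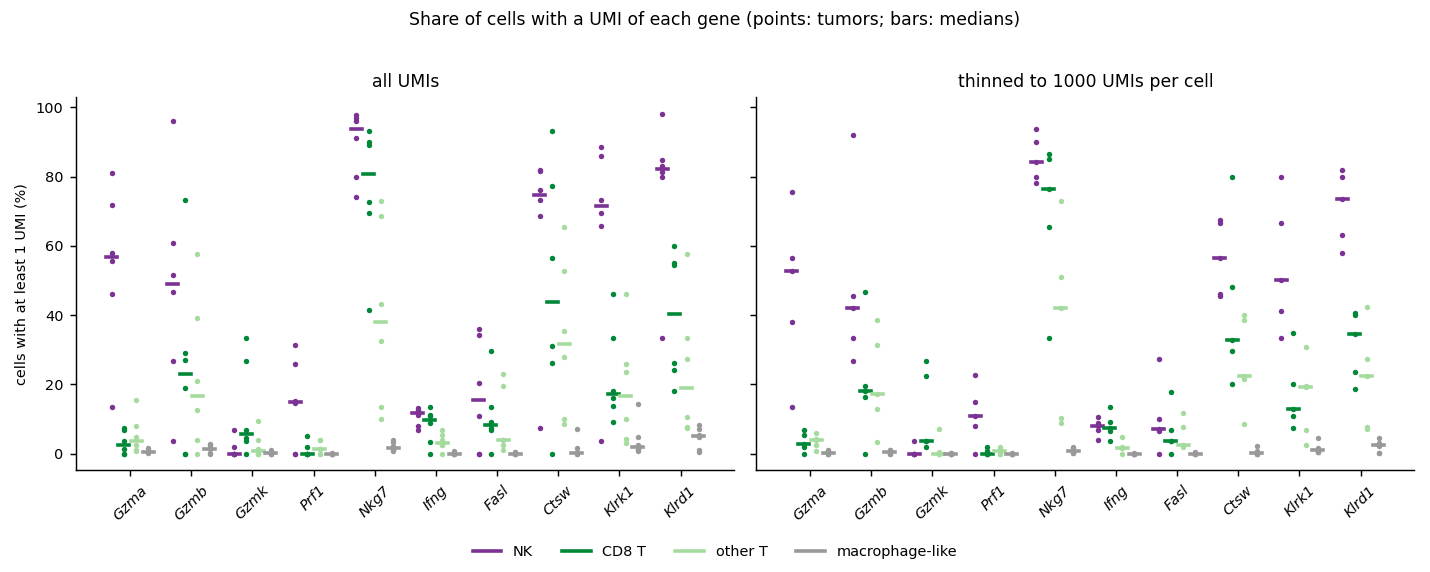
Share of cells with at least 1 UMI of each gene, with all UMIs (left) and after thinning each cell to 1000 UMIs (right), with a point for each tumor and a bar at the median. NK cells lead for *Gzma*, *Gzmb*, *Prf1*, *Klrk1* and *Klrd1* in both panels, CD8 T cells for *Gzmk*, and macrophage-like cells reach at most 14.4% (*Klrk1* in MYC spinal Rosini1172).

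NK cells differed from CD8 T cells in most of the genes that could be tested. UMIs were summed per class and tumor and compared with edgeR's quasi-likelihood test, with the tumor as a block because the classes come from the same animal and with Benjamini-Hochberg adjustment over 1782 genes. Of the 10 genes, 6 passed the filter on low counts, and *Gzmk*, *Prf1*, *Ifng* and *Fasl* did not, so that the main fit holds no test of them. An alternative fit without the filter, resting on few UMIs, gave *Gzmk* a log2 difference of -3.25 in NK against CD8 T cells (SE 0.496, edgeR adjusted p = 1.028e-08). There *Prf1* was higher in NK cells by 2.82 (SE 0.43, adjusted p = 1.065e-08), and *Ifng* and *Fasl* were not called. This fit shared its estimate of the spread fully among genes (infinite prior degrees of freedom). Its p-values, here and below, therefore do not use the spread of a single gene among tumors. Of the 6 that passed, 5 were higher in NK cells than in CD8 T cells and 0 lower, while over all genes tested 3.54% were higher and 3.87% lower. The filter keeps a gene that reaches a minimum level in as many sums as a class has. A gene such as *Gzma* can thus enter through the class where it is high, and the 0 lower holds for these 6 genes only. *Gzma* was higher by 6.45 on the log2 scale (SE 0.47, edgeR adjusted p = 1.635e-10), *Gzmb* by 1.93 (SE 0.27, adjusted p = 1.265e-05), *Klrk1* by 1.76 (SE 0.31, adjusted p = 0.0002853) and *Klrd1* by 1.54 (SE 0.25, adjusted p = 0.0001008). *Ctsw* was higher by 0.86 (SE 0.26, adjusted p = 0.04433), a call that was kept in 4 of 13 alternatives and lost without Rosini1172, Rosini1177, Rosini1232, Soxertini568 or Soxertini593, where the adjusted p was 0.05666 to 0.1988. *Nkg7* differed by 0.21 (SE 0.25, adjusted p = 0.8011). The median of the 6 genes was 1.65 and that of all genes tested was -0.007.

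Against other T cells, 6 of the 6 testable genes were higher in NK cells, while 3.09% of all genes tested were higher and 4.94% lower. The log2 differences were 4.56 for *Gzma* (SE 0.37), 2.16 for *Klrd1* (SE 0.24), 2.14 for *Klrk1* (SE 0.29), 1.78 for *Gzmb* (SE 0.26), 1.70 for *Nkg7* (SE 0.26) and 1.38 for *Ctsw* (SE 0.25), with edgeR adjusted p of at most 0.0003338. Their median was 1.96 and that of all genes -0.02. Without the low-count filter *Prf1* (3.325, SE 0.39), *Fasl* (1.217, SE 0.33) and *Ifng* (1.127, SE 0.34) were also called higher in NK cells, with edgeR adjusted p of at most 0.03488. These calls again do not use the spread of a single gene among tumors. *Fasl* passed the filter in 8 other settings and *Ifng* in 5, and each was called in all of them. Both comparisons share the NK sums, and the 2 sets of values are given side by side and not as separate evidence.

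CD8 T cells differed from other T cells in 1 of the 6 genes, while 0.617% of all genes tested were higher and 1.35% lower. *Nkg7* was higher in CD8 T cells by 1.49 on the log2 scale (SE 0.26, edgeR adjusted p = 0.001556). *Gzma* had a log2 difference of -1.89 (SE 0.53, adjusted p = 0.06238), *Klrd1* of 0.62 (SE 0.26, adjusted p = 0.2933), *Ctsw* of 0.52 (SE 0.26), *Klrk1* of 0.38 (SE 0.33) and *Gzmb* of -0.15 (SE 0.27, adjusted p = 0.9899). DESeq2 called the same 1, 5 and 6 genes in the 3 comparisons, *Nkg7* alone in CD8 T against other T cells. The median of the 6 genes was 0.45 and that of all genes tested -0.03. Without the low-count filter *Gzmk* was higher in CD8 T cells by 1.99 (SE 0.37, edgeR adjusted p = 2.394e-05), with UMIs mainly from Rosini1172. In that fit *Gzma* was lower, at -2.00 (SE 0.34, adjusted p = 2.293e-06), and *Prf1*, *Ifng* and *Fasl* were not called. Its p-values do not use the spread of a single gene among tumors.

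Much of the granzyme signal of other T cells lay in cells that also had an NK receptor UMI. Among 1271 other T cells 166 had a UMI of a gating NK receptor beside their CD3 UMI, and these held 240 of the 275 *Gzma* UMIs and 496 of the 909 *Gzmb* UMIs. Their *Gzma* level was 645 CPM against 20.7 CPM in the other 1105 cells. *Gzmb* stood at 1332 against 244 CPM, *Klrd1* at 1381 (1380.5) against 107 CPM and *Nkg7* at 2541 against 546 CPM, whereas *Gzmk* stood at 5.37 against 57.9 CPM. These levels pool the tumors, and Rosini1172 gave 107 of the 166 cells and 93 of the 100 *Gzmk* UMIs of other T cells. For *Gzma* the split was seen in each of the 4 tumors with at least 10 such cells. Without and with the NK receptor UMI, *Gzma* stood at 14.5 and 368 CPM in Rosini1172, 0 and 2313 CPM in Rosini1232, 48.0 and 240.3 CPM in Rosini1148 and 44.7 and 1079.5 CPM in Soxertini568. Whether these cells are T cells with NK receptors, NK cells with CD3 transcripts or doublets was not tested. The doublet caller Scrublet did not work on these tables, since it marked only 21 of 22163 kept cells, and all were retained.

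CD8 T cells with an NK receptor UMI numbered 42 of 478, of which 26 came from Rosini1172 and 4 from the 15 CD8 T cells of Rosini1148. The levels below pool the tumors, so that tumor and NK receptor UMI are not separated. *Gzma* stood at 185 CPM in them and at 40.4 CPM in the other 436, *Gzmb* at 806 and 368 CPM, and *Klrd1* at 1146 and 528 CPM. Without the cells that had both kinds of UMI, *Gzma* in CD8 T against other T cells changed from -1.89 to 0.84 (SE 0.57, edgeR adjusted p = 0.6712) and *Gzmb* from -0.15 to 0.84 (SE 0.34, adjusted p = 0.2784). *Nkg7*, *Ctsw* and *Klrd1* were then higher in CD8 T cells. Without these cells the signs of *Gzma* and *Gzmb* between the T cell classes thus turned, and that of *Nkg7* did not. Neither *Gzma* nor *Gzmb* was called with or without them. Marker gates on all kept cells, which retain such cells, also gave *Gzmb* as higher in CD8 T cells (edgeR adjusted p = 0.04422). The sign of *Gzmb* therefore does not turn on these cells alone.

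**Figure D3:**
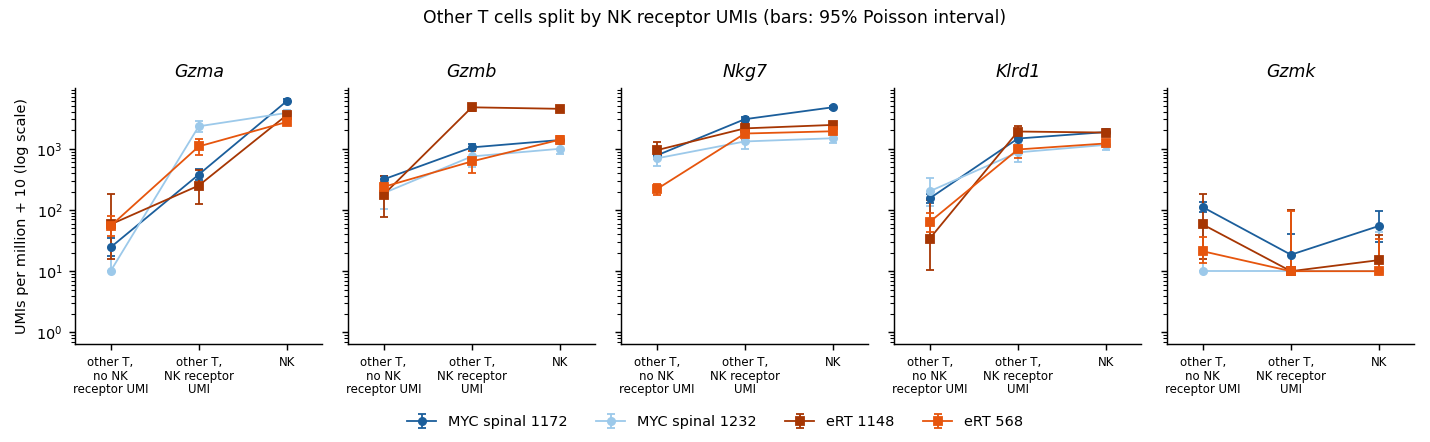
Levels of 5 genes in other T cells without an NK receptor UMI, in other T cells with one and in NK cells, as CPM plus 10 on a log axis, for the 4 tumors with at least 10 cells in each set, with bars for exact 95% Poisson intervals of counting error. *Gzma* stands at 0 to 48.0 CPM in the first set and at 240.3 to 2313 CPM in the second.

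Other T cells with a *Cd4* UMI, 146 cells, 98 of them from Rosini1172, held 20.7 (20.65) CPM of *Gzma*, 124 CPM of *Gzmb*, 826 CPM of *Nkg7* and 94.99 CPM of *Gzmk*. The 48 cells with a *Foxp3* UMI, the transcription factor of regulatory T cells, held 216 CPM of *Gzmb*, 0 UMIs of *Gzmk*, *Prf1* and *Ifng*, and 28 *Gzmb* UMIs in 10 cells. Granzyme B transcripts were thus also found in cells with a *Cd4* or a *Foxp3* UMI, in 14 of the 146 and 10 of the 48 cells.

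**Figure D4:**
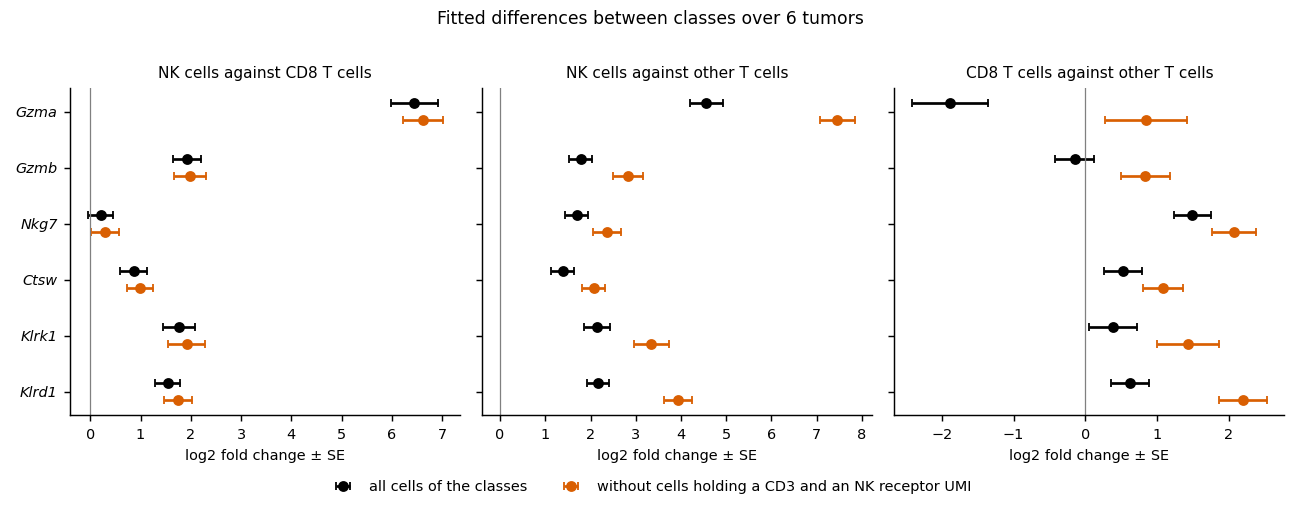
Fitted log2 differences with standard errors between the classes over 6 tumors for the 6 genes that passed the filter, with all cells of the classes (black) and without cells that hold a CD3 and an NK receptor UMI (orange). *Gzma* lies at 6.45 in NK against CD8 T cells, and in CD8 T against other T cells *Gzma* and *Gzmb* cross 0 while *Nkg7* stays on the positive side.

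A list of 60 companion genes holds other granzymes, granule proteins, secreted factors, receptors and transcription factors of killer cells. Of these, 24 could be tested, and 12 were higher in NK than in CD8 T cells and 0 lower, with a median log2 difference of 0.98. Over all genes tested 3.54% were higher and 3.87% lower. Against other T cells 14 of 24 were higher and 0 lower, with a median of 1.34, while 3.09% of all genes tested were higher and 4.94% lower. *Ncr1* and *Klrb1c* are among them and were used in the gate, so that their calls were built in. The list was drawn up for killer cells, and its genes can pass the filter through the class where they are high. The 0 lower thus holds for the testable genes only. *Gzmc*, a granzyme with close relatives (*Gzmd*, *Gzme* and *Gzmg*) between which reads can be split, was higher in NK than in CD8 T cells by 7.25 on the log2 scale (SE 0.58) and than in other T cells by 2.38 (SE 0.35). Its NK values ranged from 0 CPM in Rosini1177 and 264 CPM in Rosini1172 to 10174.5 CPM in Rosini1232. *Tyrobp*, an adaptor of activating NK receptors, was higher by 4.24 (SE 0.46) and 2.61 (SE 0.37), and *Fcgr3*, an Fc receptor for antibody-dependent killing, by 3.25 (SE 0.37) and 2.43 (SE 0.29).

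Among 7 genes of granule cargo and processing, 5 could be tested, and 2 of these, both genes of granzyme inhibitors, were higher in NK than in CD8 T cells. *Serpinb9*, which blocks granzyme B, was higher in NK than in CD8 T cells by 2.62 (SE 0.31, edgeR adjusted p = 7.664e-07) and *Serpinb6b* by 2.25 (SE 0.31, adjusted p = 9.975e-06), while *Serpinb9b* had 19 UMIs in NK cells and did not pass the filter on low counts. The chemokine gene *Xcl1* was higher by 1.56 (SE 0.47, adjusted p = 0.04373) and, against other T cells, by 2.69 (SE 0.45). *Ccl5* and *Klrc1*, which encodes NKG2A, were the companion genes higher in CD8 T than in other T cells, by 1.71 (SE 0.33, adjusted p = 0.006478) and 1.58 (SE 0.26, adjusted p = 0.001004). *Gzmc* was lower in CD8 T than in other T cells, with a log2 difference of -4.87 (SE 0.62, adjusted p = 3.58e-05). CD8 T cells held 15 *Gzmc* UMIs, at 6.06, 0 and 41.8 CPM in MYC spinal Rosini1172, Rosini1177 and Rosini1232 and 111, 20.4 and 0 CPM in the eRT. Other T cells held 109, 0 and 4277 CPM and then 492, 339 and 246 CPM. Of the other T cells of Rosini1232, 31.4% also had an NK receptor UMI. What such cells contribute to the *Gzmc* difference was not examined. The genes of granule release offered 1 testable member, which was called in neither direction.

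Across the 18 sums of 3 classes and 6 tumors, the genes most like the summed 10 genes, by Pearson's r of log2 CPM after adding 10 CPM over 2533 genes with a mean of at least 50 CPM, were *Sh2d2a* (r = 0.871), *AW112010* (0.867), *Serpinb9* (0.856), *Ctla2a* (0.834), *Klra3* (0.822), the gating gene *Klrb1c* (0.816), *Dapk2* (0.804) and *Car2* (0.803). The points share tumors and library depth, so the r is a description. Among the 10 genes themselves *Klrk1* and *Klrd1* were the most alike (r = 0.850) and the neighboring *Gzma* and *Gzmk* the least (r = -0.324), next to *Ifng* and *Fasl* (r = -0.308).

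Between eRT and MYC spinal tumors, 0 of the testable genes were called in any class with edgeR. Of the 10 genes 4 of 1025 genes tested could be compared in CD8 T cells, 6 of 2027 in other T cells and 9 of 1787 in NK cells, and 0% of all genes were called in each. Genes at an unadjusted p under 0.05 numbered 23, 24 and 36, and 0 of them were among the 10. DESeq2 called 1, 1 and 3 genes, with 0 of the 10 among them. *Gzmb* differed by 1.34 (SE 1.16), 1.57 (SE 1.26) and 1.40 (SE 0.77) on the log2 scale in CD8 T, other T and NK cells, and Rosini1148 decided the sign in both T cell classes, where the values without it were -0.88 (SE 1.08) and -0.66 (SE 1.01). *Gzma* differed by -1.71 (SE 1.14) in other T cells and by -0.71 (SE 0.42) in NK cells, and without Rosini1232 the first was 0.60 (SE 0.83). The other 7 genes tested in NK cells lay between -0.83 and 0.58. Standard errors over the 3 classes ran from 0.42 to 1.26, and differences of that size were not detectable with 3 tumors in a group. With the mouse model as a covariate, Rosini1148 alone carries the eRT side of the contrast. The median log2 difference of the tested genes among the 10 was then 0.73, 0.53 and -0.09 in CD8 T, other T and NK cells. Without the covariate it was -0.08, -0.46 and -0.02.

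A change between classes that itself differed between tumor types was sought with an interaction term over 2463 genes. Of the 9 genes tested, 0 were called for NK against CD8 T cells, where 0% of all genes were called, and 0 for CD8 T against other T cells, where 0.0406% were called. Genes at an unadjusted p under 0.05 numbered 81 and 51, again with 0 of the 9 among them. DESeq2 called 0 and 1 genes, and 0 of the 9. *Nkg7* had an interaction of 0.95 (SE 0.49, edgeR adjusted p = 1) for CD8 T against other T cells.

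Of the 25920 UMIs of the 10 genes in kept cells, 75.2% lay in the 3 classes. By tumor the share was 89.2%, 11.1% and 55.9% in MYC spinal Rosini1172, Rosini1177 and Rosini1232 and 94.6%, 59.2% and 54.0% in eRT Rosini1148, Soxertini568 and Soxertini593. Outside the T and NK clusters lay 6110 UMIs, and 3504 of these (57.3%) were in 808 cells that had a UMI of a gating gene. For *Gzma*, *Gzmb* and *Prf1* 85.8%, 82.9% and 91.2% of the outside UMIs lay in such cells over all tumors, and for the 10 genes the share ran from 41.5% (*Nkg7*) over 49.1% (*Klrd1*) and 52.2% (*Klrk1*) to 91.2% (*Prf1*). The tumors differed, since in Rosini1148 such cells held 0 of 21 outside *Gzma* UMIs and 5 of 41 of *Gzmb*, and in Rosini1177 7 of 16 and 1 of 7. In eRT a cycling cluster of 558 cells held 973 UMIs of the 10 genes, and 285 *Gzma* UMIs in it lay in 14 cells of Soxertini568. Of its Soxertini568 cells, 20 gated as NK held 680 UMIs of the 10 genes, 27 gated as other T 198 and 4 gated as CD8 T 30. The 3 classes leave these cells out, so the class levels of Soxertini568 do not include them.

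*Nkg7* had the lowest share in such cells. Of its 2633 UMIs outside the T and NK clusters, 1092 lay in cells with a gating UMI and 1084 in granulocyte progenitor-like cells without one, which are marked by *Mpo*, *Elane*, *Prtn3* and *Ctsg*. In MYC spinal Rosini1177 these were 1021 of 1313 outside UMIs, and 89.99% of all *Nkg7* UMIs of that tumor lay outside. A granulocyte progenitor-like cluster of 324 cells had an *Nkg7* UMI in 75.6% of cells and a level of 1247 CPM. In its cells from Rosini1177 *Nkg7* stood at 1297.5 CPM and in those from Rosini1232 at 947 CPM, against 1293 CPM (12 UMIs, 95% interval 668 to 2258.5 CPM) and 1623 CPM (1402 to 1868 CPM) in the CD8 T cells of the same tumors. A larger cluster of that name, of 935 cells, also had 2 B cell markers raised and was led by *Vpreb3*, *Myl4* and *Myb*, so it may mix cell types. In it *Nkg7* stood at 331 CPM in 861 cells of Rosini1177 and 92.4 CPM in 40 cells of Rosini1232. Its 34 cells from Rosini1172 held 306 *Nkg7* UMIs, all in cells with a gating UMI.

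*Klrd1* was also found outside lymphocytes. In an unnamed eRT cluster of 172 cells, led by *Timd4*, *Ccl17*, *Bcl11a*, *Ffar2* and *Flt3*, 46.5% of cells had a *Klrd1* UMI, with 354, 426 and 447 CPM in Rosini1148, Soxertini568 and Soxertini593. The same cluster had 0 *Gzma* UMIs. The *Klrd1* level in these cells lay within the range of CD8 T cells (239 to 973 CPM).

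**Figure D5:**
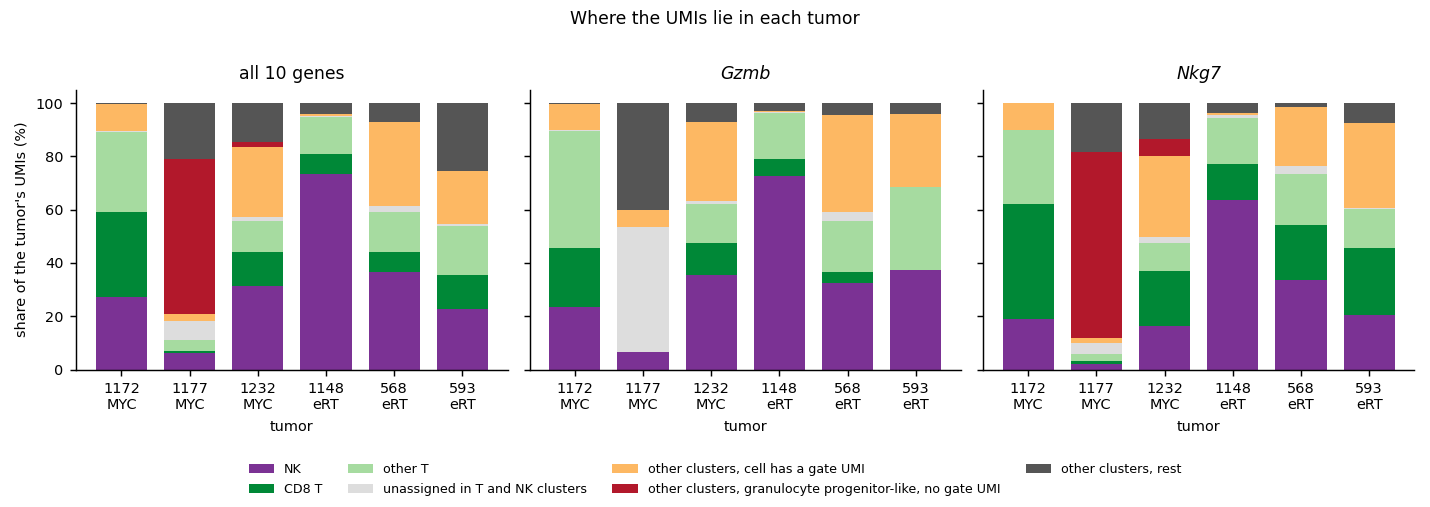
Share of the UMIs of all 10 genes, of *Gzmb* and of *Nkg7* by the cells that held them, as stacked bars for each tumor that sum to 100%. In MYC spinal Rosini1177 granulocyte progenitor-like cells without a gating UMI hold the largest block, which comes from *Nkg7*, and in eRT Rosini1148 NK cells hold 73.5% of the UMIs of the 10 genes.

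The genes a target cell uses to receive these signals were counted in tumor cells. Smarcb1-negative cells, clusters with under 0.25 of the *Smarcb1* UMIs that their depth gave, 16 to 1483 in a tumor, held *Fas*, the receptor of Fas ligand, at 16.4, 21.9 and 5.45 CPM in MYC spinal Rosini1172, Rosini1177 and Rosini1232 and at 6.41, 45.1 and 2.31 CPM in eRT Rosini1148, Soxertini568 and Soxertini593. *Ifngr1*, a chain of the interferon gamma receptor, stood at 25.8 to 135 CPM in them against 167 to 421 CPM in macrophage-like cells. *H2-T23*, which encodes Qa-1, the ligand of CD94 with NKG2A, stood at 131, 0 and 31.6 CPM and at 47.0, 22.6 and 12.6 CPM, where 3 UMIs in the 16 cells of Rosini1177 would have made 65.7 CPM. The NKG2D ligand gene *Raet1e* stood at 1.32 to 12.8 CPM in the 5 tumors whose gene table lists it, which that of Rosini1177 does not. *Ulbp1* stood at 0 to 2.14 CPM, with 0 UMIs in Rosini1177 and Soxertini568, where 3 UMIs would have made 65.7 and 4.83 CPM. *Serpinb9* stood at 3.0 (2.98) to 63.6 CPM in Smarcb1-negative cells, against 96.2 to 594 CPM in NK cells. The Smarcb1-negative clusters also held cells with a gating UMI. In Rosini1172, which gave the highest *Serpinb9* and *H2-T23* values, 7 of 98 cells were gated as other T and 4 as NK. In Rosini1232 21 of 1483 were gated as other T, 11 as NK and 8 as CD8 T. What these cells contributed was not tested.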

How the data were processed

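Single-cell suspensions of 6 tumors were measured with 10x Genomics 3′ v2 chemistry, and the submitters' processing notes name Cell Ranger 2.0.2 and mm10. The values used are raw UMI counts per gene and cell, as deposited by the authors in 1 table per tumor; per-sample columns not used numbered 0. A minimum of 200 genes and a maximum of 25% mitochondrial UMIs were required of a cell. Clusters were computed per tumor type with Seurat 5.3.0 (2000 variable genes, 30 dimensions, 20 neighbors, resolution 0.8), without the 10 genes and the companion genes. Naming a cluster took 3 or more markers, each detected in 10% of cells or more and with a log2 fold over the rest of 1 or more. Doublet scores came from Scrublet in scanpy 1.11.5, and no cell was removed for them.

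UMIs were summed per class and tumor where at least 10 cells were present, and tested with edgeR 4.0.16 (quasi-likelihood, TMM factors, filter by expression, Benjamini-Hochberg threshold 0.05) in R 4.3.3, with the tumor as a block for class comparisons. The classes of a tumor come from the same animal, which is where the pairing comes from, and their deviations from the class means correlated in each tumor (mean r 0.254 to 0.686, lowest pair 0.12, over 2541 genes). The eRT against MYC spinal comparison was run within each class over 3 against 3 tumors. Alternatives were other cell filters, marker gates without clusters, cells with CD3 and NK receptor UMIs left out, the 843 highest doublet scores left out, no TMM factors, DESeq2 1.42.0, no low-count filter, no block, mouse model as a covariate and each tumor left out. The interaction and its alternatives were added after the data were seen. Cells are not replicates: n is the number of tumors. The p-values of eRT against MYC spinal tumors measure the spread between tumors. Those of the class comparisons, with the tumor as a block, measure how the class difference varies among tumors. Exceptions are fits with infinite prior degrees of freedom, where the spread of a single gene does not enter. These were all fits without the low-count filter and the interactions without Rosini1148 or without Soxertini568. The tests were tested on simulated data. Python 3.11.15 with scipy 1.17.1 gave exact intervals.

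The 10 genes, the companion lists and the markers were chosen with earlier results of these data known. Named genes were the 10 genes, companion genes past the threshold (by size of change, up to 8 in a comparison and direction), the 8 genes most alike by r, a list of target-side genes and the leading genes of clusters.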

Additional observations from a re-analysis of the deposited data

Results flagged for a closer look

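None of the 10 genes was flagged. *Lyz2*, a lysozyme gene of myeloid cells, was flagged because its change between CD8 T and other T cells differed between eRT and MYC spinal tumors by 2.42 on the log2 scale (2.415, SE 0.46, edgeR adjusted p = 0.04232). Its level in CD8 T cells was 16.7, 323 and 627 CPM in MYC spinal Rosini1172, Rosini1177 and Rosini1232 and 306, 153 and 2021 CPM in eRT Rosini1148, Soxertini568 and Soxertini593. In other T cells it was 55.6, 996 and 2077 CPM and then 156, 143 and 1259 CPM. The summed macrophage markers of the same cells stood at 0 to 1129.8 CPM in CD8 T cells and 0 to 657 CPM in other T cells, and their part in the result was not tested. The call was lost under several alternatives, given with the other values that depend on the processing.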

How the results depend on the processing

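Over the alternatives, 290 values of single genes kept their direction and their side of the threshold, 16 lost and 6 gained a call, and 9 reversed; the causes were not tested. In CD8 T against other T cells, leaving out cells with CD3 and NK receptor UMIs gave 0.84 for *Gzma* and for *Gzmb*, and marker gates on all kept cells gave 0.88 for *Gzmb* (edgeR adjusted p = 0.04422) and, in NK against CD8 T cells, -0.16 for *Nkg7*. In eRT against MYC spinal tumors, *Gzmb* ranged from -0.88 (without Rosini1148) to 1.84 in CD8 T and from -0.66 (without Rosini1148) to 2.16 (2.156) in other T cells with 1 tumor left out, was -0.11 in other T cells without the double-positive cells, and *Gzma* in other T cells was 0.43 with gates and ranged from -2.24 (-2.237) to 0.60 (without Rosini1232) with 1 tumor left out. Without the replicate block, which pairs classes of the same tumor, 0 of the 10 genes and 2 of all genes were called in CD8 T against other T cells (with it, 1 and 35), 1 and 52 in NK against CD8 T (5 and 132), and 3 and 48 in NK against other T (6 and 143). The unblocked adjusted p was 0.9215 for *Gzmb* in NK against CD8 T cells and 0.9859 for *Nkg7* in CD8 T against other T cells. In CD8 T against other T cells, gates called 4 of the 10 genes and 64 genes, leaving out double-positive cells 3 of the 10, leaving out high doublet scores 2, and testing every gene with a UMI 3 of the 10 and 137 genes. Without the low-count filter NK against CD8 T had 277 genes and NK against other T 420. Leaving out 1 tumor gave 1 to 2, 4 to 5 and 6 to 8 of the 10 genes and 12 to 40, 75 to 149 and 106 to 160 of all genes in the 3 comparisons. CD8 T against other T counted 13 genes without Rosini1172, 12 without Rosini1232 and 20 without Soxertini568, and NK against CD8 T 75 without Rosini1172. In eRT against MYC spinal tumors DESeq2 called 1, 1 and 3 genes in CD8 T, other T and NK cells, every gene with a UMI 6, 26 and 11, and leaving out 1 tumor 0 to 0, 0 to 3 and 0 to 1. The interactions for CD8 T against other T and NK against CD8 T cells together called 1 gene (*Lyz2*, in the first), 0 genes with strict cell filters, without double-positive cells and without high doublet scores, and 0 to 11 genes with 1 tumor left out (8 and 3 without Soxertini568, 2 and 3 without Rosini1148, 0 and 0 without each of the others). Depth limits *Gzmk*, *Prf1*, *Ifng* and *Fasl*, which fell below the filter in the main class comparisons, and the classes of Rosini1177.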
